A study of Mus musculus with 4 samples.

Results

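Granins and the proteins that process prohormones were followed as a group of 10 genes: Chga, Chgb, Scg2, Scg3, Scg5, Pcsk1, Pcsk2, Pcsk1n, Cpe and Vgf. The members were named by function and matched to probe sets that the platform annotation assigns to exactly 1 gene. This gave 9 members among 22180 genes in all, each with 1 such probe set. Pcsk2 was not matched to a probe set, and its transcript was not analysed here.

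Neuroendocrine cells store peptides and amines in dense core granules. Granins are acidic proteins that aggregate with this cargo as it leaves the Golgi and are themselves cut into peptides. Prohormone convertases cut the precursors at pairs of basic residues, carboxypeptidase E trims the basic residues left behind, and an amidating enzyme finishes many peptides. Sympathetic neurons, adrenal chromaffin cells and the neuroblastomas derived from that lineage carry such granules, and chromogranin A is a marker of these tumours.

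The samples were 4 primary mouse tumours, 1 Affymetrix array each, of a single genotype: mutant Alk, the TH-MYCN transgene and Stat6-/-, on a C57BL\6 x 129Sv/J background. TH-MYCN places human MYCN under a tyrosine hydroxylase promoter, so that it acts in catecholamine-making cells. Every tumour lacked Stat6, the transcription factor downstream of IL-4 and IL-13, and tumours with Stat6 were not analysed here, so no value below can be set against an intact gene. Age, sex and whether the tumours came from separate animals are not stated in the labels. The 4 values of a gene therefore describe 1 group, with tumour and array differences together in each SD, and no test between conditions was possible. In bulk tumour RNA, fewer cells of a type and less RNA per cell cannot be told apart.

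Values are the deposited ones on a log2 scale, where a difference of 1 is a 2-fold difference. The background came from 1392 olfactory and vomeronasal receptor genes, and a gene whose 4-tumour mean topped the 95th percentile of theirs, 6.17, is called detected. The labelled tumour identity was checked with fixed markers. Of the sympathetic neuroblast markers, 7 of 7 measured were detected, with means from 8.05 to 11.88. Although the tissue label names a neck muscle, 0 of 11 skeletal muscle markers were detected (means 3.63 to 5.72). Of the thyroid and parathyroid markers 0 of 6 measured were detected (3.70 to 5.91), and neither was Pnmt, the adrenaline-making enzyme of chromaffin cells (4.35). Tumour 4 differed from the others in sex-linked transcripts, with Xist at 10.13 against 3.89 to 3.95.

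The granin group was almost wholly detected. Of the 9 measured members, 8 lay above the floor (Chga, Chgb, Scg2, Scg3, Scg5, Pcsk1n, Cpe and Vgf), where 40.5% of all genes did. All 8 also passed a floor set at the receptor genes' 99th percentile, where 25.3% of all genes did. The exception was the convertase Pcsk1. The share of receptor genes as bright as a detected member was between 0.072% and 0.575%.

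**Figure D1:**
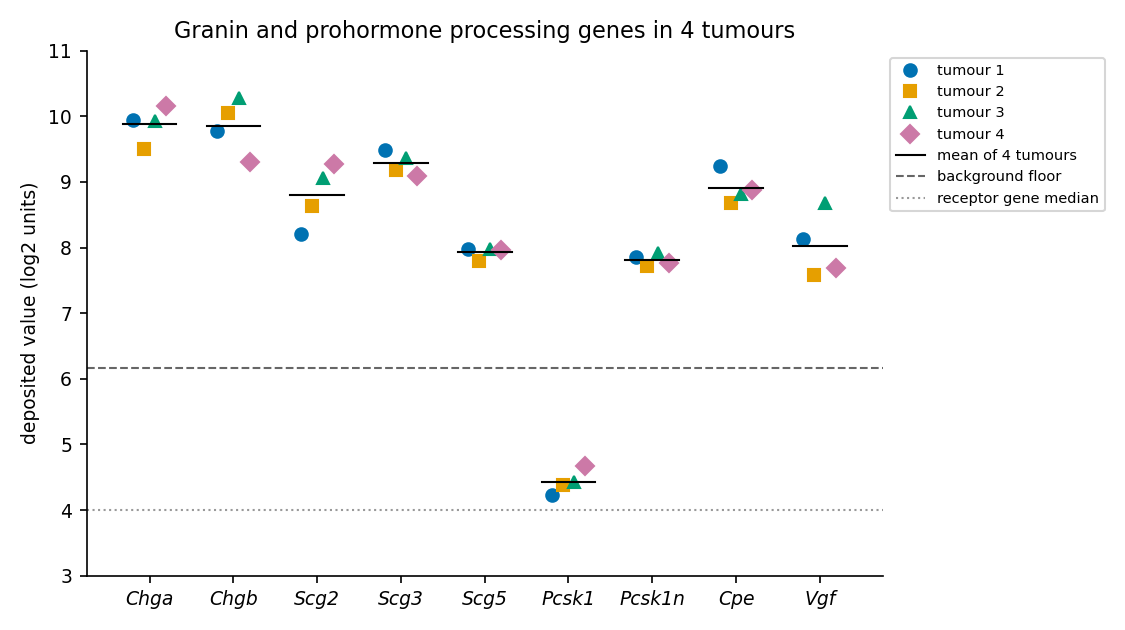
Deposited values (log2 units, vertical axis) of the 9 measured genes in each of the 4 tumours, with a black line at the mean, a dashed line at the background floor of 6.17 and a dotted line at the receptor gene median. All tumours lie above the floor for 8 genes and below it for Pcsk1, and the tumours are spread widely for Chgb, Scg2 and Vgf but lie close together for Scg5 and Pcsk1n.

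Chga encodes chromogranin A, the granin after which the family is named. It measured 9.94, 9.50, 9.93 and 10.15 in tumours 1 to 4, a mean of 9.88 ± 0.28 (SD, n = 4). Tumours 1 and 3 were level with each other and tumour 2 was the lowest, 0.66 units (1.58-fold) under tumour 4. Without tumour 2 the range was 0.23.

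Chgb, chromogranin B, measured 9.78, 10.05, 10.27 and 9.30 in tumours 1 to 4, a mean of 9.85 ± 0.42 (SD, n = 4). Its order was unlike that of Chga: tumour 3 was highest and tumour 4, the highest for Chga, was lowest. The range of 0.97 units (1.96-fold) lay just short of 2-fold, and without tumour 4 it was 0.50.

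Scg2 encodes secretogranin II, the precursor of the neuropeptide secretoneurin. It measured 8.21, 8.64, 9.06 and 9.27 in tumours 1 to 4, a mean of 8.80 ± 0.47 (SD, n = 4). Tumour 1 was lowest and tumour 4 highest, 1.06 units (2.08-fold) apart, while tumours 3 and 4 differed by 0.21.

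Scg3, secretogranin III, binds chromogranin A and tethers granin aggregates to the granule membrane. It measured 9.49, 9.19, 9.36 and 9.09 in tumours 1 to 4, a mean of 9.29 ± 0.18 (SD, n = 4), so all tumours lay within 0.40 units.

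Vgf encodes a granin-like precursor that nerve growth factor induces in neuronal cells. It measured 8.14, 7.58, 8.67 and 7.69 in tumours 1 to 4, a mean of 8.02 ± 0.50 (SD, n = 4). Tumour 3 stood above the rest and tumours 2 and 4 were the low ones, 0.11 units apart. The range of 1.09 units (2.13-fold) was the widest of the members.

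Scg5 and Pcsk1n encode the small granin-like partners of the convertases: Scg5 makes 7B2, the chaperone that PC2, the Pcsk2 product, needs to mature, and Pcsk1n makes proSAAS, an inhibitor of PC1/3, the Pcsk1 product. Scg5 measured 7.98, 7.79, 7.98 and 7.97 in tumours 1 to 4, with a mean of 7.93 ± 0.09 (SD, n = 4). Tumour 2 was the single low value, and the other 3 tumours lay within 0.015 units of one another. Pcsk1n measured 7.86, 7.73, 7.91 and 7.77 in tumours 1 to 4, with a mean of 7.82 ± 0.08 (SD, n = 4). Both genes spanned 0.19 units (1.14-fold). Pcsk1n lies on the X chromosome, and its value in tumour 4, where Xist was high, fell inside the range of the other tumours.

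Among the enzymes, Cpe, carboxypeptidase E, measured 9.25, 8.68, 8.81 and 8.87 in tumours 1 to 4, a mean of 8.90 ± 0.24 (SD, n = 4). Tumour 1 was the high one, 0.38 units above its nearest neighbour, and without it the range was 0.19. Pcsk1 encodes PC1/3, a convertase of the regulated secretory pathway. It measured 4.24, 4.38, 4.43 and 4.67 in tumours 1 to 4, a mean of 4.43 ± 0.18 (SD, n = 4), which differs from the floor by -1.74 units. Of the receptor genes, 34.7% had a mean at or above it, so Pcsk1 was undetermined at background level and is not shown to be absent. Its inhibitor proSAAS and the trimming enzyme Cpe were thus read clearly while the convertase itself was not, and the other neuroendocrine convertase, Pcsk2, was not analysed here.

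Set against all detected genes, the members ran from wide to narrow ranges. A range of at least 1 unit (2-fold) was reached by 2 of 8 detected members, Scg2 and Vgf, where 4.26% of detected genes reached it. Of detected genes, 3.20% had a range as wide as that of Vgf, 3.46% as that of Scg2 and 4.61% as that of Chgb. For Chga the share was 17.0%, for Cpe 26.5% and for Scg3 52.7%. Scg5 and Pcsk1n were at the other end, where 9.92% and 9.88% of detected genes had a range as small. The median range was 0.61 over the 8 members and 0.41 over all 8988 detected genes. Any range rests on its lowest and highest value. The range of Scg2 was 0.63 without tumour 1, and that of Vgf was 0.56 without tumour 3 and 0.98 without tumour 2. The number of members past 2-fold was 1 without any single tumour, Vgf without tumour 1 or 4 and Scg2 without tumour 2 or 3. Leaving out a tumour cannot widen a range, and the share over all detected genes fell too. It was 2.98%, 3.07%, 2.82% and 2.49% without tumour 1, 2, 3 and 4, respectively.

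**Figure D2:**
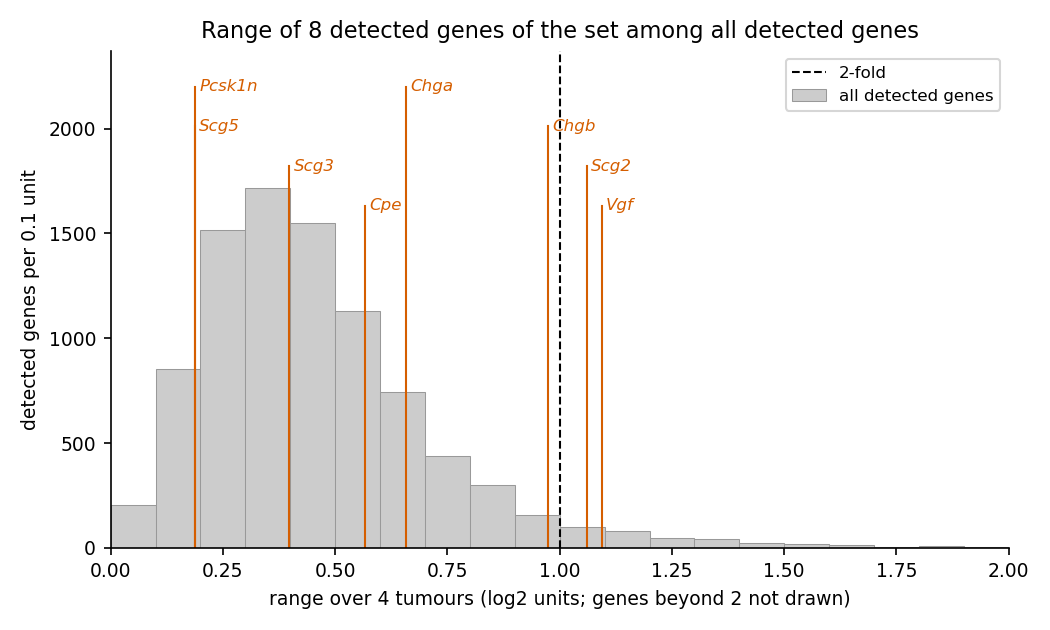
Histogram of the range over the 4 tumours (log2 units, horizontal axis) for all detected genes in grey, with an orange line at the range of each of the 8 detected members and a dashed line at 2-fold. Scg5 and Pcsk1n sit in the narrow tail at 0.19, and Chgb, Scg2 and Vgf in the wide tail at 0.97 to 1.09.

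Whether the members were high or low in the same tumour was read from deviations of each gene from its own 4-tumour mean. The arrays were offset from each other over all detected genes, by a median deviation of 0.12, 0.04, -0.09 and -0.08 in tumours 1 to 4. Subtracting this offset gives the relative deviation. In tumour 2 the members were low: 7 of 8 had a negative relative deviation, with a median of -0.19, and Chgb (0.16) was the exception. In tumour 3 they were high, with 7 of 8 positive and a median of 0.17, and Cpe (-0.01) was the exception. The median in tumour 2 was -0.12 without tumour 3, and that in tumour 3 was 0.10 with no floor. The medians in the other tumours were small and did not keep their sign. That of tumour 1 was -0.07, with 6 of 8 negative, and 0.04 with no floor. That of tumour 4 was 0.04, with 5 of 8 positive, but -0.05 with no floor and -0.02 without tumour 2. By construction the median over all detected genes is at 0 in every tumour.

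In deposited values, 5 of 8 members (Chga, Scg5, Pcsk1n, Cpe and Vgf) had their lowest value in tumour 2, where 17.8% of detected genes did. In relative deviations 6 of 8 did, with Scg3 added, where 25.2% of detected genes did. The highest value lay in tumour 3 for 3 of 8 members in deposited values, where 11% of detected genes had theirs. Scg5 had equal highest values in tumours 1 and 3 and was counted under tumour 1 only. In relative deviations tumour 3 was highest for 5 of 8, Scg5 among them, and for 24.3% of detected genes. The count thus depended on the scaling and on where the tie was placed. Fixed cell type markers moved between the same tumours. Sympathetic neuroblast markers, which mark the tumour cells' own lineage, were also low in tumour 2, with 7 of 7 negative and a median of -0.23. Macrophage markers were low in tumour 3, with 7 of 7 detected negative and a median of -0.47. Over all measured markers of a list, the mean level ranged from 9.50 in tumour 2 to 9.93 in tumour 4 for neuroblast markers and from 6.71 in tumour 3 to 7.30 in tumour 1 for macrophage markers. Fibroblast markers, 6 of 8 detected, were highest in tumour 1, where the list mean was 6.91 and the median relative deviation 0.51, and lowest in tumour 4, at 6.03 and -0.36. Like the members, they were low in tumour 2, with 5 of 6 detected negative and a median of -0.30. In tumour 3 they were high, with 5 of 6 positive and a median of 0.20. Of the measured Schwann cell markers 1 of 5 was detected, Fabp7, and the list mean ran from 5.60 in tumour 3 to 6.29 in tumour 1. Without Fabp7 that mean was 5.38 in tumour 3 and 5.47 in tumour 1. The part of these cells in the members' values was not tested.

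**Figure D3:**
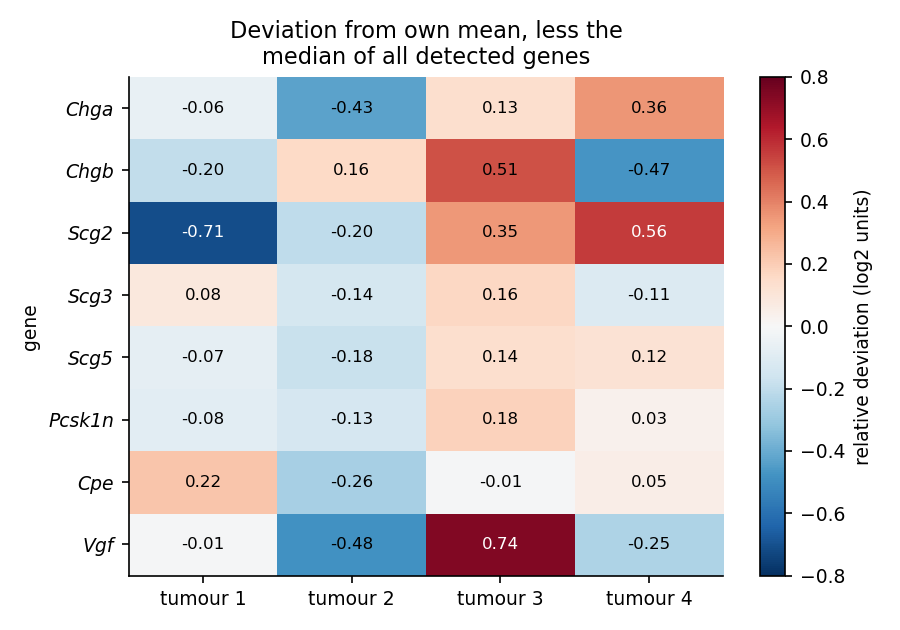
Relative deviation (log2 units, colour and printed value) of the 8 detected members in rows and the 4 tumours in columns, after subtracting the median of all detected genes in that tumour. The column of tumour 2 is blue for all genes but Chgb (0.16), that of tumour 3 is red for all but Cpe (-0.01), and tumour 4 has both Scg2 at 0.56 and Chgb at -0.47.

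Members also differed from one another over the 4 tumours. Pairs of other genes were not computed, so whether such differences are particular to the members was not tested. Chgb and Scg2 were the most unlike pair of the 28: their deviations differed by 0.51, 0.36, 0.16 and -1.03 in tumours 1 to 4, a root mean square difference of 0.61 units. Tumour 4 thus had low Chgb beside high Scg2. Chga and Chgb differed by -0.59 in tumour 2 and 0.82 in tumour 4, a root mean square difference of 0.54. Scg5 and Pcsk1n, the convertase partners, were the most alike, with a root mean square difference of 0.05 over the 4 tumours. Both hardly vary, so their likeness says little beyond that. These differences are within arrays and show unequal values of the pair, without showing which gene differed, and array noise was not separated from them.

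For the members with a 2-fold range, the genes nearest in pattern were taken from 381 detected genes with a range of at least 1, by the root mean square difference of deviations over the 4 tumours. For Vgf the nearest were Unc93a (0.034), Kctd12 (0.036), Resp18 (0.082), Slc4a10 (0.083) and Id3 (0.099). Resp18 encodes a protein of dense core granules in neuroendocrine cells. It measured 6.32, 5.72, 7.03 and 5.89 in tumours 1 to 4, high in tumour 3 and low in tumours 2 and 4 as Vgf was, and its values in tumours 2 and 4 lay under the floor. Kctd12, an auxiliary subunit of GABA-B receptors, measured 8.44, 7.79, 8.90 and 7.95. With 4 tumours such matches are easily met, and 20 of the 381 genes came within 0.25 units of Vgf.

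For Scg2 the nearest were Mir3475 (0.014), Sfi1 (0.022), Vmn1r91 (0.031), Mir680-2 (0.032) and Lce3d (0.045), with 41 of 381 genes within 0.25 units. Vmn1r91 is a vomeronasal receptor, one of the genes that set the background, and Lce3d makes a protein of the skin barrier. The receptor genes' median also rose in this order, from 3.85 and 3.95 in tumours 1 and 2 to 4.10 in both tumours 3 and 4. After a further quantile normalization the range of Scg2 was 1.24 units. The part of background in the Scg2 pattern was not tested.

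Promoter sequences are shown because Chgb and Scg2, the pair with the least alike profiles, carry the same element. Several granin promoters hold a cAMP response element (CRE), which CREB family factors bind. RefSeq promoters of build GRCm38.p6, from 250 bases before to 50 after the start site, were matched for 8 of the 10 members; Cpe and Vgf are named only. The palindrome TGACGTCA was found in 3 of these 8 (Chgb, Scg2 and Pcsk1) and in 1.79% of 32851 mouse promoters of the same length. Its half-site TGACG, searched on both strands and contained in both arms of the palindrome, was found in 7 of 8, all but Pcsk1n, and in 20.8% of promoters. The 120 bases before the start are printed 5′ to 3′ along the gene for the members with a half-site there and a measured transcript, with half-sites in capitals.
Chga, chr12:102554821-102554940, plus strand: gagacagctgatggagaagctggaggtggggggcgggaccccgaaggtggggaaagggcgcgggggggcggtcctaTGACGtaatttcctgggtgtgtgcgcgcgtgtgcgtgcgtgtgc
Chgb, chr2:132781522-132781641, plus strand: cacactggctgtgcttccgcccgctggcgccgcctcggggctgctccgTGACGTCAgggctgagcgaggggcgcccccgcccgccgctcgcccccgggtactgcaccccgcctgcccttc
Scg2, chr1:79440027-79440146, minus strand: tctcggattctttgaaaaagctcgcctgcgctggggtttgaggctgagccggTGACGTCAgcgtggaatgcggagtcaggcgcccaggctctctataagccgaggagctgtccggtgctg
Scg3, chr9:75684057-75684176, minus strand: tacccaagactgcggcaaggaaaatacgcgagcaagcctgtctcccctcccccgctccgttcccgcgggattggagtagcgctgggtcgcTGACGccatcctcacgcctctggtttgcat
Pcsk1, chr13:75089737-75089856, plus strand: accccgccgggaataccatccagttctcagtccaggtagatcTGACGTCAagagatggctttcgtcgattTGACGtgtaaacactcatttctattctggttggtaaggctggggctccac

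The palindromes lie at -72 to -65 in Chgb, -68 to -61 in Scg2 and -78 to -71 in Pcsk1, counted from the start site. Chga has a single half-site at -44 to -40, Scg3 one at -30 to -26, and Pcsk1 a further one at -50 to -46. Chgb and Scg2 were lowest and highest, respectively, in tumour 4, and Pcsk1, with a palindrome in a like place, was at background in every tumour. A match of letters is not a bound site, and the arrays do not bear on binding. Chgb and Scg2 were picked as a pair by these same values, and the part of the CRE in them was not tested. The GC box GGGCGG, searched on both strands, was found in 6 of 8 (not in Scg2 or Scg3) and in 35.7% of all promoters, and the letters TATAAA in Chga alone, at 6 to 11 and so after the start site, and in 13.6%. For RE1, the element of the repressor REST, the left half-site TTCAGCACC was found in Scg2 alone, at -7 to 2 on the reverse strand, and in 0.371% of all promoters. The right half-site GGACAG directly adjoins it at -13 to -8, with no base between them, and was found in Scg2 alone and in 22.2% of all promoters. The half-sites were searched singly, and whether this spacing makes a full RE1 was not tested.

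**Figure D4:**
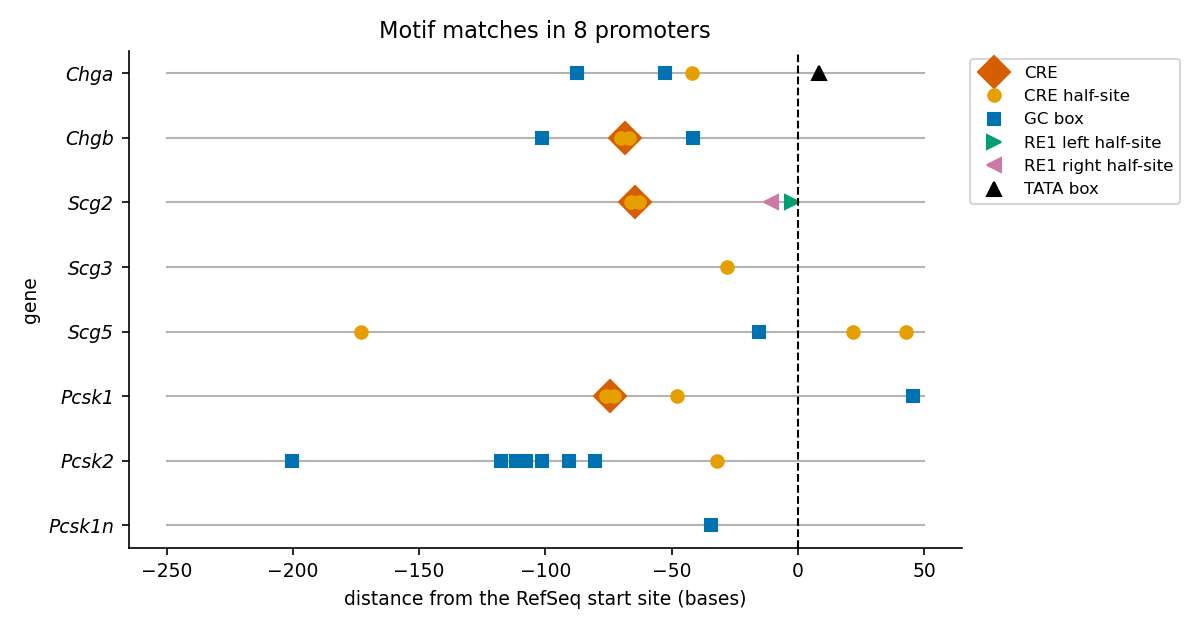
Positions of motif matches relative to the RefSeq start site (bases, horizontal axis) in the 8 matched promoters, 1 row per gene; each symbol is centred on its match and the dashed line marks the start. The 3 CRE palindromes of Chgb, Scg2 and Pcsk1 all lie between -78 and -61, and each palindrome also counts as 2 half-sites.

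Factors known to act on granin genes were read alongside. Of 12 listed, 11 were measured and 6 detected, and 0 of these 6 reached a 2-fold range. Rest, the repressor of neuronal genes, measured 4.80, 4.54, 4.56 and 4.74 in tumours 1 to 4, all under the floor. Its corepressors Rcor1 and Rcor2 were at 7.87 ± 0.18 and 7.71 ± 0.25 (SD, n = 4). Creb1, which binds the CRE, was nearly level at 9.13 ± 0.14, as was its coactivator Crebbp at 9.56 ± 0.13 (SD, n = 4). Insm1, a zinc finger factor of neuroendocrine cells, measured 7.45, 7.49, 7.24 and 7.67, lowest in tumour 3, and Sin3a, a corepressor scaffold, 7.78, 7.88, 7.37 and 7.34. The median relative deviation of the 6, corepressors and a coactivator together, was 0.06 in tumour 2 and -0.10 in tumour 3. These small medians lay on the other side of 0 from those of the members. They were not computed under the alternative settings, and a relation to the members was not tested.

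Of the other enzymes of prohormone maturation, 7 of 13 measured were detected (Furin, Pcsk6, Pcsk7, Mbtps1, Pam, Cpd and Ctsl) and 0 of 7 had a 2-fold range. Pam, the amidating enzyme of the granule, measured 9.58, 9.13, 10.03 and 9.66 in tumours 1 to 4, lowest in tumour 2 and highest in tumour 3, with a range of 0.90. Furin, a convertase of the constitutive pathway that every cell uses, measured 7.24, 6.89, 6.88 and 6.99. Pcsk7 and Mbtps1, further convertases, were level at 6.40 ± 0.13 and 8.27 ± 0.15 (SD, n = 4). Cpd, a Golgi carboxypeptidase, was at 7.87 ± 0.18, Pcsk6 at 6.63 ± 0.27 and Ctsl, cathepsin L, at 9.14 ± 0.18 (SD, n = 4). In tumour 2, 5 of the 7 were below 0 in relative deviation, with a list median of -0.21.

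Genes of granule formation, membrane and release were detected in 25 of 30 cases, and 3 of the 25 had a 2-fold range: Ptprn, Arfip1 and Slc18a1. Ptprn, a granule membrane protein also known as IA-2, was the widest. It measured 9.28, 8.55, 10.08 and 9.41 in tumours 1 to 4, a range of 1.53 units, lowest in tumour 2 and highest in tumour 3. Ptprn2, its paralogue IA-2 beta, measured 7.61, 7.18, 7.69 and 7.58, with the same lowest and highest tumours over a narrower range of 0.51. Being lowest in tumour 2 and highest in tumour 3, a pattern singled out after its values were seen, was shared by Vgf, Pcsk1n, Pam, 2 of the 6 peptide precursors (Vip and Cartpt) and 7 of the 25 granule genes, among them the synaptotagmins Syt4 and Syt7 and the vesicular monoamine transporter Slc18a2. It was met by 2 of 8 members, with Scg5, tied between tumours 1 and 3, not counted, and by 4.57% of all detected genes. In relative deviations it was met by 4 of 8 members (Scg3, Scg5, Pcsk1n and Vgf), 10 of the 25 granule genes, 1 of the 6 peptide precursors and 9.42% of all detected genes. Slc18a1, which loads monoamines into granules, measured 7.08, 6.39, 6.01 and 6.78, with tumour 3 under the floor, and Arfip1, a factor of granule budding, ran from 8.09 in tumour 1 to 6.69 in tumour 3. Pick1 (7.49 ± 0.08), Hid1 (8.72 ± 0.12) and Rab27a (8.27 ± 0.11, SD, n = 4), which act in granule biogenesis and docking, were the most constant. In tumour 2, 18 of the 25 had a negative relative deviation, with a list median of -0.18, and in tumour 3 16 of 25 were positive, with a median of 0.06.

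Peptide precursors carried by such granules were detected in 6 of 20 measured cases, and 4 of the 6 had a 2-fold range. Their ranges were wider than those of the granins, with a median of 2.08 units against 0.61; this difference was not tested. Gal, galanin, measured 9.56 in tumour 3, where Vgf and Chgb were highest, and at most 7.18 elsewhere. Vip measured 9.61, 6.69, 9.85 and 7.58 in tumours 1 to 4, and Npy 9.46, 9.15, 9.62 and 7.75, low in tumour 4 as Chgb was. Pnoc, the nociceptin precursor, ran the other way, at 7.79, 6.03, 5.79 and 8.08, and its values in tumours 2 and 3 lay under the floor, so that its range runs into background. Cartpt (11.14 ± 0.36) and Adcyap1, the PACAP precursor (9.88 ± 0.34, SD, n = 4), stayed within 0.65 and 0.79 units. In tumour 3, 5 of 6 were positive in relative deviation, with a median of 0.63.

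**Figure D5:**
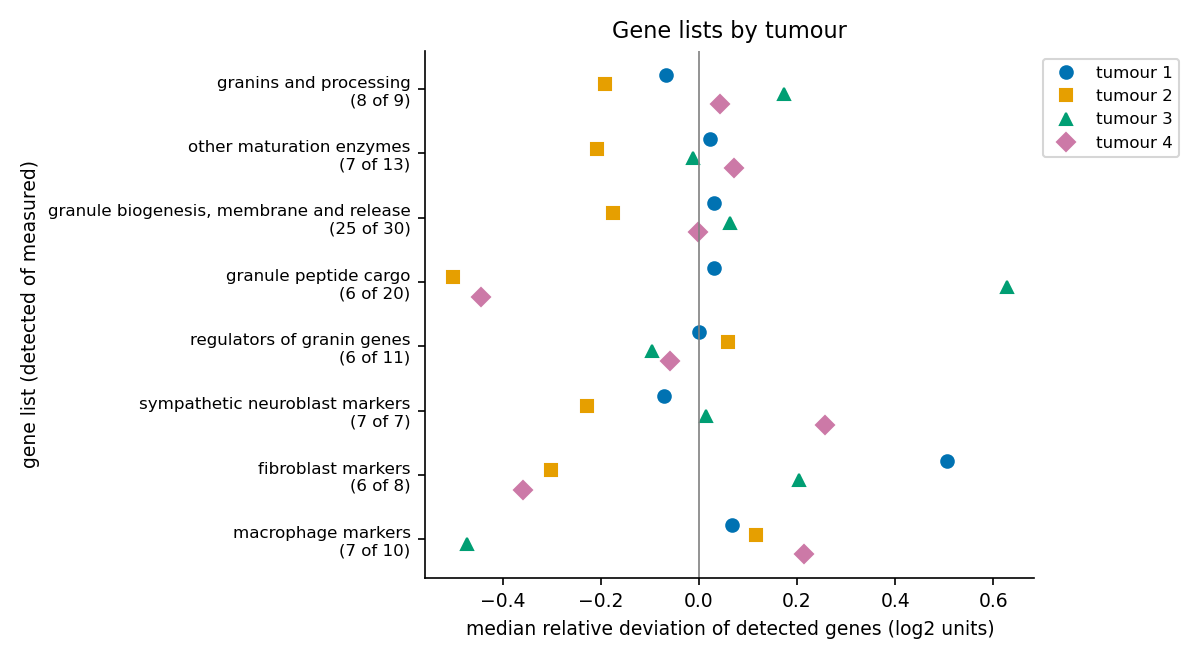
Median relative deviation (log2 units, horizontal axis) of the detected genes of each list in each of the 4 tumours, with the number detected of measured under the list's name. Granins, other maturation enzymes, granule genes and peptide cargo all lie below 0 in tumour 2 (-0.19, -0.21, -0.18 and -0.50). Neuroblast (-0.23) and fibroblast markers (-0.30) do so too, and macrophage markers are lowest in tumour 3 (-0.47).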

How the data were processed

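Total RNA of the 4 tumours was extracted with Trizol, made into cDNA and labelled with biotin, per the labels' protocols. The deposited table holds 41345 probe sets with 1 value per array on a log2 scale; the submitters' processing notes name RMA and Partek, and versions, settings and build are unstated in these sources. The log base is not stated and was taken as log2 from the values, 2.47 to 13.59. Values were used as the authors deposited them. Scanner files were not used here, and the number of arrays limits the precision.

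Genes were named from the platform annotation: 23521 probe sets named 1 gene, and 1814 named several and were left out, among them 1 shared by Pcsk1n and a neighbour. Symbols were updated by Entrez ID through RefSeq (GRCm38.p6), which matched 23328. Where a gene had several probe sets, the one of highest 4-tumour mean stood for it. No pair of arrays shared over 0.215% of identical values.

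Means, SDs, ranges and deviations were computed in Python 3.11.15 with pandas 2.3.3, and the code was tested on simulated data. Named genes were all members, 6 fixed genes (Pam, Ptprn, Ptprn2, Furin, Rest and Insm1), up to 3 of the widest and 3 of the narrowest detected genes by range in each related list, and the 5 genes nearest to each member with a 2-fold range. Syt4, Syt7, Slc18a2, Fabp7, Pnmt and Xist were added to the named genes outside this rule. The members and lists were chosen with earlier results of these data known. Some listed genes, Pcsk2 among them, are not reported here. Alternatives were the floor, the normalization, the probe set rule and leaving out each tumour.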

Additional observations from a re-analysis of the deposited data

Results flagged for a closer look

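Scg5 stood out for its value in tumour 2, the lowest of the 4 at 7.79 against 7.97 to 7.98, a gap of 0.918 of its whole range by Dixon's ratio, which is past the 95% critical value for 4 samples. The whole range was 0.19 log2 units, and without tumour 2 it was 0.015. Among the 9 measured members it was the 1 past that value. After a further quantile normalization the range of Scg5 was 0.29. Gal was also past it, with a ratio of 0.931 from 9.56 in tumour 3 against 7.01 to 7.18, as was Xist, with 0.991 from its value in tumour 4. The ratio was computed for 52 named genes, of which these 3 passed, and 5 of all 131 listed genes measured did, while about 1 in 20 groups passes by chance. Xist is not among the listed genes and was added to the named ones outside the naming rule.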

How the results depend on the processing

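The count of detected members was 8 under every alternative run except a floor at the receptor median, where Pcsk1 joined to make 9. That lower floor was passed by 86.1% of all genes, so passing it says little about Pcsk1. The floor at the 99th percentile was passed by 25.3% of all genes. The relative medians by tumour moved by less than their SD over the tumours (0.16) under every alternative run. This is a loose bound, as that SD is close in size to the largest medians (-0.19 and 0.17). Centring the arrays on detected genes, among the alternatives, cannot change these medians. The small medians of tumours 1 and 4 turned sign: tumour 1 from -0.07 to 0.04 with no floor, tumour 4 from 0.04 to -0.05 with no floor and -0.02 without tumour 2. The count of members past 2-fold was 2 under each scaling and floor tried, and 1 (lowest and highest) when a tumour was left out. The share of all detected genes past 2-fold was between 2.74% and 4.43% in the former and between 2.49% and 3.07% in the latter. The counts of members by extreme tumour were set against alternatives chosen after seeing the data. Members highest in tumour 1 numbered 3 in deposited values, 1 relative to all detected genes and 1 after a further quantile normalization. The 3 include Scg5, which was level in tumours 1 and 3. Of detected genes, 46.6% were highest in tumour 1 in deposited values and 18.2% in relative deviations. Members highest in tumour 3 went from 3 to 5 relative to all detected genes, and those lowest in tumour 4 from 2 to 1 in both of these scalings. Of detected genes, 38.6% were lowest in tumour 4 in deposited values and 28.9% in relative deviations. Leaving out 1 tumour gave between 3 and 5 members highest in tumour 1, 0 and 1 in tumour 2 and 3 and 5 in tumour 3. It gave between 1 and 2 lowest in tumour 1, 0 and 2 in tumour 3 and 2 and 5 in tumour 4. A member at its extreme in the tumour left out must pass to another, and the 5 in tumour 4 came without tumour 2. The share of all detected genes at each extreme was not computed with a tumour left out. The count lowest in tumour 2 was 5 in deposited values and 6 relative to all detected genes.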
